A study of Homo sapiens with 6 samples.

Results

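LINC RNAs are long non-coding RNAs that carry the systematic LINC gene symbol. They were followed here in the established human melanoma line A375, which had received either a plasmid expressing SLNCR or the plasmid without it. A row of the count table belonged to the set when its Ensembl identifier carried a GENCODE symbol of LINC and digits and its raw counts summed to at least 60 over the 6 libraries. LINC00673, which is SLNCR itself, and LINC00511 were left out. The rule gave 144 of the 657 LINC rows and of the 18318 genes used; 142 of them passed the filter on low counts and were tested. The members were thus chosen by their raw counts, summed over both groups, so a member's level is only a description.

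The SLNCR group comprised 3 libraries of A375 cells that received a pcDNA3.1 plasmid carrying SLNCR, and the empty vector group comprised 3 libraries of A375 cells that received pcDNA3.1 alone. In both groups the plasmid, with its CAG promoter and puromycin resistance gene, was delivered with a Lipofectamine reagent, and RNA was extracted after 48 h with puromycin at 2 µg/mL. Neither group was an untransfected culture, and the plasmid raised SLNCR far above the cells' own level. Values of a group are given in the order of its replicates 1, 2 and 3. The labels call the libraries biological replicates without saying how the cultures were separated, so the p-values measure the spread between these libraries, which may be partly technical.

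The LINC symbol is given to long non-coding RNA genes that lie between protein-coding genes and have no better name. Such RNAs are usually spliced and polyadenylated, are made at low levels, and are often restricted to few cell types. Many stay in the nucleus, where some act on the transcription of a neighbouring gene, while others bind proteins or microRNAs in the cytoplasm and a few carry a short open reading frame that is translated.

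The study's title names complexes of SLNCR with E2F1, a transcription factor of the cell cycle, so the promoters of the members were read for E2F motifs. The motifs searched were TTTCCCGC, TTTCGCGC, TTTGCCGC and TTTGGCGC, on both strands. RefSeq windows of 300 bases that span the start site (GRCh38.p14) could be matched for 101 of the 144 members. A match was present in 6 of them (5.94%), beside 3.31% of all 35116 promoters and 4.93% of the 14779 promoters of tested genes. Shown first are the windows of LINC01730 (chr20:3808244-3808543, plus strand) and LINC02535 (chr6:85404753-85405052, minus strand), because these genes passed the test of the SLNCR plasmid against the empty vector. After them come LINC00960 (chr3:75672031-75672330, plus strand) and LINC00997 (chr7:32758036-32758335, plus strand), the 2 most abundant members whose window held a motif. The windows of LINC02535, LINC00960 and LINC00997 lie upstream of, and outside, the GENCODE intervals of their genes. In GENCODE, LINC00960 starts at position 75672391 and LINC00997 at 32760279. The LINC02535 gene whose reads were counted ends at position 85390186, far from its window. That window may therefore not be the promoter of the counted gene. Capitals mark a motif match, and a window with no capitals holds none of these letters in that order.
LINC01730: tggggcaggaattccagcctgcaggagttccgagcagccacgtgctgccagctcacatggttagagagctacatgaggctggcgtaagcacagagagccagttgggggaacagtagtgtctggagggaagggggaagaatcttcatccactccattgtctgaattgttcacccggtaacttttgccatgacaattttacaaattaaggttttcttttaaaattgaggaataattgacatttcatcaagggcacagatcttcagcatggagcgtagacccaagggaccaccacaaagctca
LINC02535: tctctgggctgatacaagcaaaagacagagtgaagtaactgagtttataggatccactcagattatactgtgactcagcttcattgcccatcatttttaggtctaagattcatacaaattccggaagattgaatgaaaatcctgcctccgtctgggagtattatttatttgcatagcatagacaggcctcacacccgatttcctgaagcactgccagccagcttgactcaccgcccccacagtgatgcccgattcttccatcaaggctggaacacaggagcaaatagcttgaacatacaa
LINC00960: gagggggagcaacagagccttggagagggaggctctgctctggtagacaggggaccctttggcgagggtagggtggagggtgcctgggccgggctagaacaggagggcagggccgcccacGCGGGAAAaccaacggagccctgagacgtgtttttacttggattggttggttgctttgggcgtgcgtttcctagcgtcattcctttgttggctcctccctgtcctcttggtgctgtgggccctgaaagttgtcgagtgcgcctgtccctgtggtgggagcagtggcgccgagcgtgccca
LINC00997: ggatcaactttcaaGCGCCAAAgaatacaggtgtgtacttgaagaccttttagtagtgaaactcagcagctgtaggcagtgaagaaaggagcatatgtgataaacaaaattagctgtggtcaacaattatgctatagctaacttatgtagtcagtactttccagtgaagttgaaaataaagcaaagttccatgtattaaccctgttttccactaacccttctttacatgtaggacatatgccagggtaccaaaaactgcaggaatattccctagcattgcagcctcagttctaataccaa
The capitals in LINC00960 are the reverse complement of TTTCCCGC and those in LINC00997 that of TTTGGCGC. The other 4 members with a match were LINC01415, LINC00893, LINC01572 and LINC00689. None of the 6 passed the test between groups, and their log2 fold changes lay between -0.24 for LINC00689 and 0.39 for LINC00893. A match is only a description of the letters in a window.

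Library totals lay between 9287450 and 10822083 counts, and 12797 genes were tested. The transfected RNA, LINC00673, stood at 169.8, 246.9 and 227.01 CPM (counts scaled to a common library size with TMM factors) with SLNCR, and at 19.5, 21.4 and 21.1 CPM with the empty vector, a log2 fold change of 3.38 (standard error 0.147, edgeR adjusted p = 3.11e-05). The labels give the cell type as epithelial, yet the 9 listed keratinocyte and epithelial markers summed to only 2.23 to 3.61 CPM with SLNCR and 2.89 to 4.93 CPM with the empty vector, with CDH1, KRT5 and EPCAM close to 0. The 7 melanocyte-lineage genes found of the 9 listed summed to 183 to 198 CPM with SLNCR and 172 to 188 CPM with the empty vector, mostly from MITF and PRAME, while TYR and S100B were at 0 or not in the table used here. PMEL, DCT, TYRP1 and MLANA were also low, at means of 0.84, 0.44, 0.63 and 1.3 CPM with SLNCR. With the empty vector their means were 0.32, 0.14, 0.60 and 1.5 CPM.

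Most of the members were weakly expressed, and 1 gene dominated the set. LINC01029 alone held 28.6% of all member counts, the 12 members with the most reads held 56.0%, and the top 20 held 66.7%. Per kilobase of longest transcript, which is the scale on which levels of different genes are compared here, the median tested member reached 1.79 CPM per kb, beside 8.96 CPM per kb for the median tested gene. That places the median member above 17.3% of tested genes. There were 11 members over 10 CPM per kb and 45 under 1 CPM per kb. The summed count of all 6 libraries was under 300 for 93 of the 144 members and under 120 for 41.

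**Figure D1:**
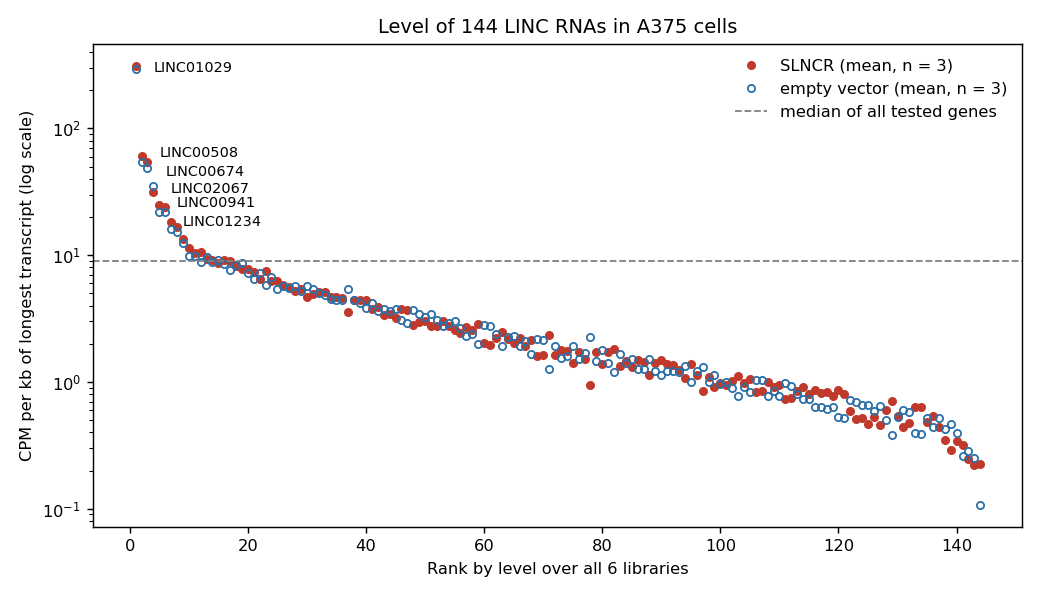
Mean CPM per kb of longest transcript (log axis) of the 144 LINC RNAs, ordered by their level over all 6 libraries, with filled points for SLNCR and open points for the empty vector (mean of 3 libraries each). LINC01029 stands alone at about 300 CPM per kb, and most other members lie below the dashed line, the median of all tested genes at 8.96 CPM per kb.

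LINC01029 (ENSG00000265843, chr18:77971294-77993722, minus strand, GRCh38) is a 3-exon gene whose nearest tested protein-coding gene, ZNF236, lies 1000567 bases away. It stood at 445, 453 and 470.2 CPM with SLNCR, and at 421, 435 and 427 CPM with the empty vector. Every SLNCR library was above every empty vector library, but the gap was small: the log2 fold change was 0.09 (standard error 0.0463, edgeR adjusted p = 0.165) and did not pass the test. At 302 CPM per kb it exceeded 99.1% of tested genes. Next in order of level came LINC00508 at 57.6 CPM per kb (a transcript of only 194 bases, named after its level was seen), LINC00674 at 51.5 CPM per kb, LINC02067 at 33.4 CPM per kb, LINC00941 at 23.4 CPM per kb and LINC01234 at 22.9 CPM per kb. LINC00941 and LINC01234 did not differ in level beyond the spread of their libraries.

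Together the members made up 0.156%, 0.157% and 0.159% of the gene counts with SLNCR, against 0.148%, 0.155% and 0.153% with the empty vector. Their summed level was 1557, 1566 and 1600 CPM with SLNCR, against 1496, 1543 and 1522 CPM with the empty vector. The groups did not overlap in this sum, although SLNCR replicate 1 and empty vector replicate 2 were close, and no test was made of it. Without LINC01029 the sum was 1112, 1113 and 1129 CPM with SLNCR, against 1075, 1108 and 1095 CPM with the empty vector. In bulk RNA such as this, fewer cells that make an RNA and less of the RNA per cell cannot be told apart. A list of 9 abundant non-coding RNAs was read as a sign of RNA quality. It had a mean of -0.10, -0.01 and -0.27 (log2, relative to each gene's mean) with SLNCR and 0.04, 0.01 and -0.05 with the empty vector. The largest log2 fold changes in this list were those of RN7SL2 (-0.61) and RN7SL1 (-0.31). The others lay between -0.15 for RPPH1 and 0.09 for SNHG1. None of the 9 passed the edgeR test, beside 16.5% of all genes. The part of this list in the members' sum was not tested.

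Set against the empty vector, the SLNCR plasmid was accompanied by few changes among LINC RNAs that passed the test. LINC01419 and LINC02535 rose and LINC01730 fell, which makes 3 of 142 tested members (2.11%) at an edgeR adjusted p under 0.05, while 2112 of all 12797 tested genes (16.5%) passed. The share called higher was 1.41% of members and 8.84% of all genes, and the share called lower 0.704% of members and 7.67% of all genes. At an unadjusted edgeR p under 0.05 there were 14 members (9.86%), beside 34.8% of all genes; 6.34% of members were higher and 3.52% lower, beside 17.3% and 17.5% of all genes. In 24 members (16.9%) the groups did not overlap, beside 38.9% of all genes. Of these, 18 members (12.7%) were higher with SLNCR, beside 19.7% of all genes, and 6 (4.23%) were lower, beside 19.1% of all genes.

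The members were read with far fewer counts than other genes, with a median of 33.8 counts per library against 308 for all tested genes. The median standard error of a log2 fold change was 0.232 for members and 0.0923 for all genes. Among genes with a mean count up to 20, 1 of 40 members (2.5%) and 1.27% of all genes were called. From 20 to 50 counts the shares were 1.96% of 51 members and 2.52% of all genes, and from 50 to 100 counts 5% of 20 members and 5.51% of all genes. Below 100 counts the members' shares are thus near the background. Over 100 and up to 500 counts 0 of 29 members and 13.6% of all genes were called, and above 500 counts 0 of 2 members and 29.1% of all genes. At an unadjusted edgeR p under 0.05 there were 3 of these 31 members (9.68%), beside 42.8% of all genes with a mean count over 100. Of those 9385 genes 4684 were above 500 counts, against 2 of the 31 members, so these shares are not matched in read count. Over 100 and up to 500 counts, groups did not overlap in 17.2% of the 29 members and in 37.1% of all genes. The other 88 lincRNA genes tested, which carry no LINC symbol, gave 4 calls (4.55%), and protein-coding genes gave 17.5%.

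The table used here is thin in genes with few reads and hardly any difference between the groups. Of the 3412 tested genes with a mean count up to 100, 10 (0.293%) had a log2 fold change within 0.02 of 0, whereas 6.92% of the 9385 genes with more reads did. Of the 111 members in that range none was so close to 0, and the smallest absolute log2 fold change was 0.0243. The filter on low counts also bears on the members with few reads. Of the 142 tested members, 9 had all 3 libraries past its limit (about 10 counts) with the empty vector but not with SLNCR, and 12 the other way round. Libraries of both groups counted together, and 7 members passed that neither group would have passed alone. A difference could thus help most where few libraries of the other group were past the limit. LINC00702 had 3 such libraries with SLNCR and 0 with the empty vector, and LINC01730 had 1 and 3. LINC01730 is one of the 9, while LINC01419 and LINC02535 are among the 114 members past the limit in all 6 libraries. LINC RNAs with few reads and hardly any difference are not analysed here, so the shares of members and of all genes called at low counts are taken over somewhat too few genes.

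**Figure D2:**
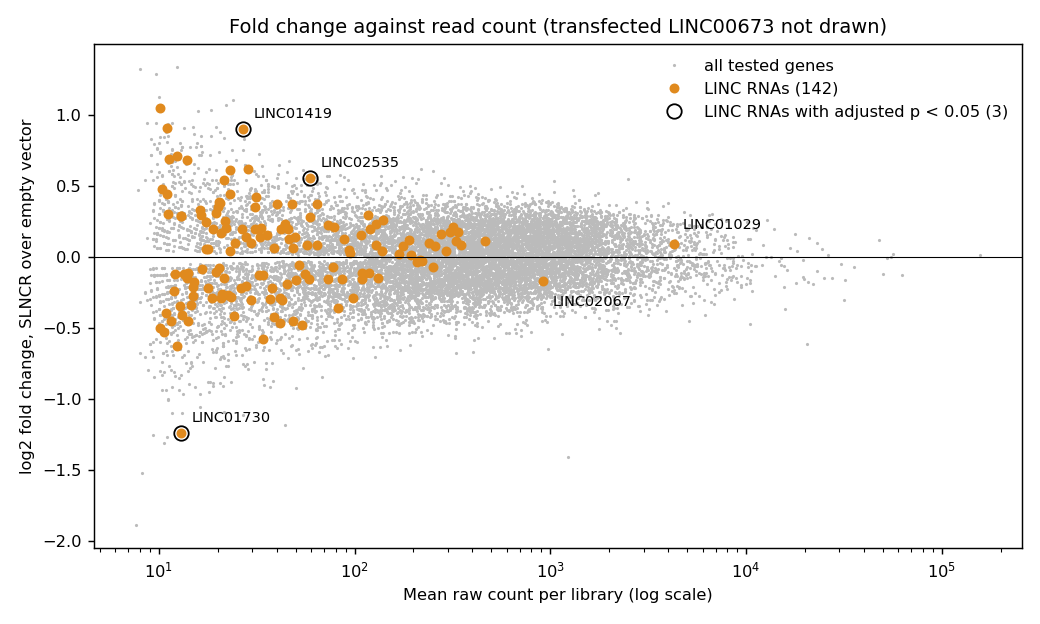
Log2 fold change of SLNCR over empty vector against the mean raw count per library (log axis) for all tested genes (grey) and the 142 tested LINC RNAs (orange), with circles around the 3 members that passed the test. The scatter narrows with read count, the 3 called members all have a mean count under 100, and few points lie next to the zero line at low counts.

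LINC01419 (ENSG00000253898, chr8:83403758-83408900, plus strand, GRCh38) is a 2-exon lincRNA gene that has been studied in liver and gastric tumours. It had 35, 40 and 32 counts with SLNCR, and 19, 20 and 15 counts with the empty vector. In CPM these were 3.33, 3.84 and 3.56 with SLNCR, a mean of 3.58 ± 0.259, and 1.90, 2.20 and 1.64 with the empty vector, a mean of 1.91 ± 0.281 (SD, n = 3 each). All 3 SLNCR libraries lay above all 3 empty vector libraries. LINC01419 was thus 1.86-fold higher with SLNCR, a log2 fold change of 0.90 (standard error 0.239, edgeR adjusted p = 0.0216).

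LINC01730 (ENSG00000275491, chr20:3808357-3812434, plus strand, GRCh38) is the gene of the first promoter window printed above and lies 2236 bases from CDC25B, which encodes a phosphatase that activates cyclin-dependent kinases at entry into mitosis. It had 7, 12 and 5 counts with SLNCR, and 18, 24 and 12 counts with the empty vector. As CPM the values were 0.665, 1.15 and 0.556 with SLNCR (0.792 ± 0.318) and 1.80, 2.64 and 1.31 with the empty vector (1.92 ± 0.673, SD, n = 3 each). The groups were apart in CPM, but the highest SLNCR library and the lowest empty vector library both had 12 counts. LINC01730 was 2.36-fold lower with SLNCR, a log2 fold change of -1.24 (standard error 0.383, edgeR adjusted p = 0.037). It passed the filter on low counts through the empty vector group, where it is high, and was not among the genes left by a stricter filter. CDC25B itself had a log2 fold change of -0.10 (edgeR adjusted p = 0.164).

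LINC02535 (ENSG00000234155, chr6:85387219-85390186, minus strand, GRCh38) is a 2-exon gene that has been studied in cervical carcinoma. It had 78, 78 and 61 counts with SLNCR, and 38, 47 and 54 counts with the empty vector. The CPM values were 7.41, 7.50 and 6.79 with SLNCR (7.23 ± 0.387) and 3.79, 5.18 and 5.91 with the empty vector (4.96 ± 1.08, SD, n = 3 each). Again no empty vector library reached an SLNCR library. LINC02535 was 1.47-fold higher with SLNCR, a log2 fold change of 0.55 (standard error 0.179, edgeR adjusted p = 0.0442). Its nearest tested protein-coding gene, 59398 bases away, is NT5E, the ecto-enzyme CD73 that makes adenosine from AMP. NT5E also rose, by a log2 fold change of 0.17 (standard error 0.0539, edgeR adjusted p = 0.0394). With the correction for GC content described next, NT5E had a log2 fold change of 0.12 and was no longer called (edgeR adjusted p = 0.189).

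All 3 calls ended when the fold changes were corrected for GC content in each library, and only 2 of all 12797 genes were then called. The edgeR adjusted p was 0.186 for LINC01419, 0.138 for LINC01730 and 0.281 for LINC02535, with log2 fold changes of 0.70, -1.23 and 0.40. The unadjusted edgeR p went from 0.0015 to 0.010 for LINC01419 and from 0.0065 to 0.033 for LINC02535. For LINC01730, whose fold change hardly moved, it was 0.0047 before and 0.0041 after the correction. Leaving out single libraries ended the 3 calls too, while the fold changes kept their direction. LINC01419 had log2 fold changes of 0.95 without SLNCR replicate 1 and of 0.89, 1.01 and 0.81 without empty vector replicates 1, 2 and 3, at edgeR adjusted p of 0.0578, 0.114, 0.0804 and 0.0564. LINC01730 had -1.12 and -1.06 without SLNCR replicates 1 and 3 and -1.29 and -0.95 without empty vector replicates 1 and 2, at edgeR adjusted p of 0.12, 0.0834, 0.127 and 0.167. LINC02535 had 0.54 and 0.53 without SLNCR replicates 1 and 2 and 0.39 and 0.59 without empty vector replicates 1 and 2, at edgeR adjusted p of 0.116, 0.0616, 0.214 and 0.109. Without SLNCR replicate 1 or empty vector replicate 1 only 1 of all tested genes was called, and without empty vector replicate 2 only 2. DESeq2 gave no adjusted p for any of the 3; its unadjusted p was 0.0125 for LINC01419, 0.0212 for LINC01730 and 0.0269 for LINC02535.

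**Figure D3:**
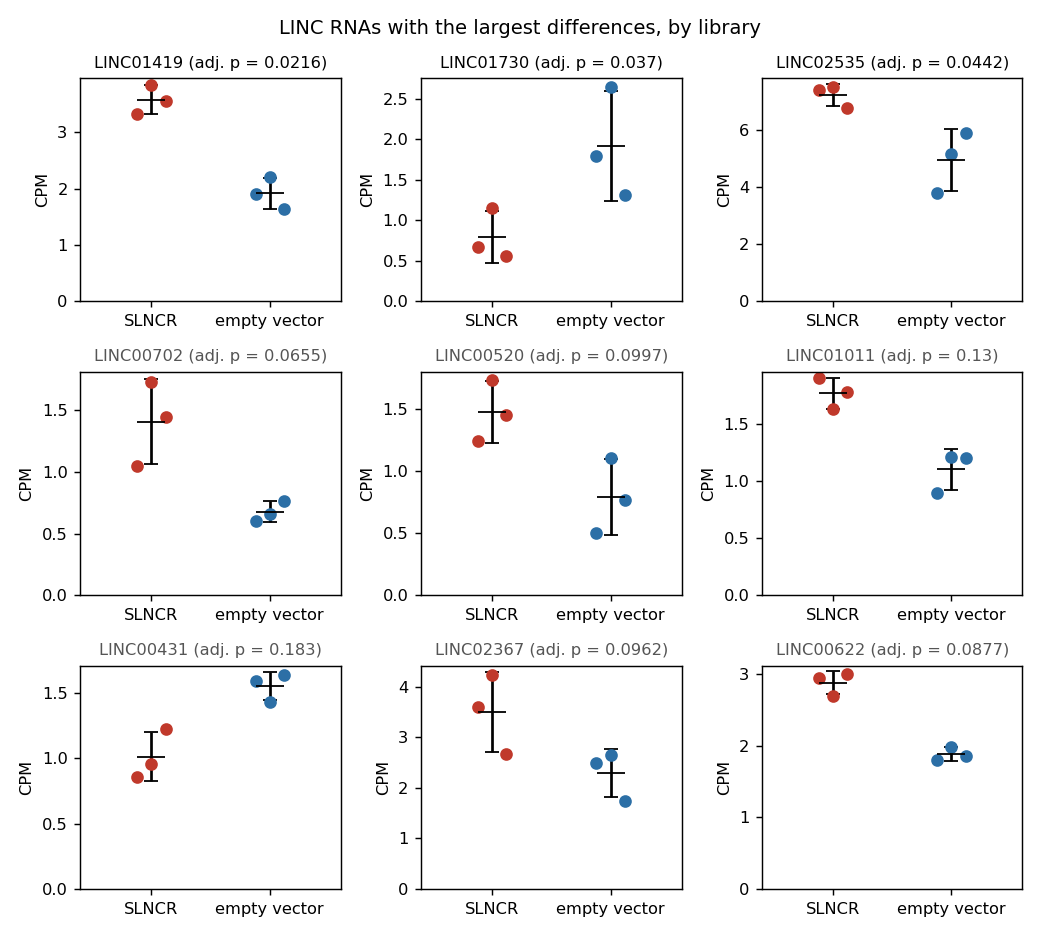
CPM in each library for the 3 LINC RNAs that passed the test (top row) and for the 6 others with the largest difference between groups that did not overlap (rows below), SLNCR left and empty vector right, with mean and SD of 3 libraries. The groups are apart in every panel, and only the top row has an edgeR adjusted p under 0.05.

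A further 6 members had large differences without overlap between the groups, though none passed the test. The largest was that of LINC00702, which had 11, 18 and 13 counts with SLNCR and 6, 6 and 7 counts with the empty vector, a log2 fold change of 1.05 (standard error 0.382, edgeR adjusted p = 0.0655). LINC00520, an RNA studied in melanoma and carcinoma cells, had 13, 18 and 13 counts with SLNCR and 5, 10 and 7 counts with the empty vector. Its log2 fold change was 0.90 (standard error 0.378, edgeR adjusted p = 0.0997). Both genes sit close to the limit of 60 summed counts and passed the filter on low counts through the SLNCR group, where they are high.

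LINC01011 had 20, 17 and 16 counts with SLNCR and 9, 11 and 11 counts with the empty vector, a log2 fold change of 0.68 (edgeR adjusted p = 0.13). Its exons overlap those of NQO2, a quinone oxidoreductase gene, on the same strand, so reads of both genes may be mixed. All 3 SLNCR libraries and 2 empty vector libraries of LINC01011 were past the limit of the filter. LINC02367 had 38, 44 and 24 counts with SLNCR and 25, 24 and 16 counts with the empty vector, which gave a log2 fold change of 0.62 (edgeR adjusted p = 0.0962). Its groups overlapped in raw counts and were barely apart in CPM, at 2.67 in SLNCR replicate 3 and 2.64 in empty vector replicate 2. LINC00622 had 31, 28 and 27 counts with SLNCR and 18, 18 and 17 counts with the empty vector, a log2 fold change of 0.61 (edgeR adjusted p = 0.0877). Within each group its libraries were close together. LINC00431 was the only one of the 6 that was lower, with 9, 10 and 11 counts with SLNCR and 16, 13 and 15 counts with the empty vector, through which it passed the filter, a log2 fold change of -0.63 (edgeR adjusted p = 0.183).

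The 12 members with the most reads were measured more precisely. None of them passed the edgeR test, beside 21.3% of all genes with a mean count over 100, and 1, LINC02067, had an unadjusted p under 0.05, beside 42.8%. Of those genes, 13.6% were called at a mean count up to 500 and 29.1% above 500. Among the 12 members only LINC01029 and LINC02067 had a mean count above 500. Their log2 fold changes lay between -0.17 and 0.21. LINC02067 was the lowest, at 91.7, 97.2 and 78.9 CPM with SLNCR and 107, 97.4 and 97.1 CPM with the empty vector, a log2 fold change of -0.17 (standard error 0.0752, edgeR adjusted p = 0.117). With the GC correction its log2 fold change was -0.33 (edgeR adjusted p = 0.217). SLNCR replicate 3 was its low library, the groups overlapped, and without SLNCR replicate 2 the gene was called (log2 fold change -0.24, edgeR adjusted p = 0.0266, beside 0.14 to 0.398 without each of the others). LINC00707 was the highest, at 34.3, 30.1 and 41.7 CPM with SLNCR and 32.3, 27.5 and 31.4 CPM with the empty vector (log2 fold change 0.21, standard error 0.109, edgeR adjusted p = 0.178). Here SLNCR replicate 3 was the high library and the groups overlapped, and without SLNCR replicate 2 the gene was called (log2 fold change 0.31, edgeR adjusted p = 0.0269). Calls made without 1 library are to be read beside the number of all genes called. That number varied widely with the library left out, as the closing section gives.

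LINC01234, studied in several carcinomas, stood at 50.1, 49.97 and 48.96 CPM with SLNCR and 45.8, 43.3 and 48.7 CPM with the empty vector (log2 fold change 0.11, edgeR adjusted p = 0.278). LINC00674 stood at 35.5, 34.98 and 40.6 CPM with SLNCR and 34.3, 32.3 and 31.7 CPM with the empty vector (log2 fold change 0.17, edgeR adjusted p = 0.161). In both genes the SLNCR libraries were all higher, but the difference did not pass the test. LINC00941, whose start lies 216 bases from that of CAPRIN2, stood at 34.6, 29.4 and 37.2 CPM with SLNCR and 29.8, 27.98 and 31.6 CPM with the empty vector, with overlap (log2 fold change 0.17, edgeR adjusted p = 0.202); without SLNCR replicate 2 it too was called (log2 fold change 0.27, edgeR adjusted p = 0.0422). The remaining 6, LINC00667, LINC00960, LINC01128, LINC00221, LINC00997 and LINC00472, had log2 fold changes from -0.07 to 0.16, and in all 6 the groups overlapped.

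**Figure D4:**
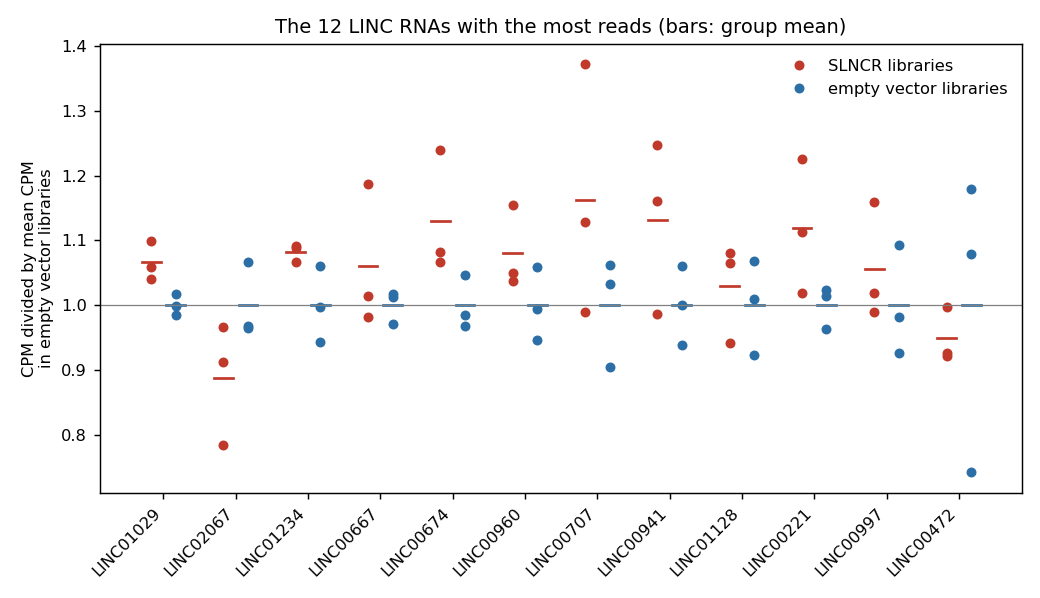
CPM in each library divided by the mean CPM of the empty vector libraries, for the 12 LINC RNAs with the most reads, SLNCR left and empty vector right for each gene, with bars for the group means. Group means with SLNCR lie from 0.889 of the empty vector mean for LINC02067 to 1.16 for LINC00707, and the libraries of LINC00472 are spread most widely within a group.

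Among RNAs studied in melanoma or other tumours, 16 of the 25 listed were tested members. No member of this list passed the test in either direction (0 of 16 in edgeR, with 16.5% of all genes called), although LINC00342 and LINC00520 had an unadjusted p under 0.05, beside 34.8% of all genes. Of the 16, 8 were above 0 and 8 below, and the median log2 fold change was 0.00, beside -0.01 for all genes. LINC00342 came nearest, at 4.94, 4.81 and 4.12 CPM with SLNCR and 6.98, 6.39 and 6.02 CPM with the empty vector. Every SLNCR library was lower, with a log2 fold change of -0.48 (standard error 0.171, edgeR adjusted p = 0.0606). LINC00641 stood at 7.22, 7.88 and 7.23 CPM with SLNCR and 7.48, 12.8 and 8.65 CPM with the empty vector (log2 fold change -0.36, edgeR adjusted p = 0.158), and its empty vector replicate 2 was far above the other libraries. Without that library its log2 fold change was -0.11 (edgeR adjusted p = 0.69), and with the GC correction it was -0.49 (edgeR adjusted p = 0.188).

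LINC01116 had a log2 fold change of 0.21 (edgeR adjusted p = 0.334) and LINC00662 one of -0.15 (edgeR adjusted p = 0.383). For LINC00662, with a GC content of 35.9%, the GC correction gave -0.38 (unadjusted p = 0.0045, edgeR adjusted p = 0.143). LINC00337, now named ICMT-DT, has exons that overlap those of ICMT on the opposite strand, so reads of both genes may be mixed. Its log2 fold change was -0.53 from 64 summed counts (edgeR adjusted p = 0.381). The others of the list, LINC00857, LINC00963, LINC00839, LINC00847 and LINC00888, lay between -0.12 and 0.08. LINC00467, the source of a peptide described at the mitochondrial ATP synthase of colorectal cancer cells, was the only member among 9 listed RNAs that yield a small protein. It stood at 4.75, 5.29 and 5.34 CPM with SLNCR and 3.59, 6.28 and 4.93 CPM with the empty vector (log2 fold change 0.06, edgeR adjusted p = 0.836). Listed RNAs under the limit were LINC01554 with 9 summed counts, LINC01133 with 7 and LINC01268 with 1.

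As a set the members were centred slightly above 0, with a median log2 fold change of 0.06 (quartiles -0.18 and 0.21, range -1.24 to 1.05), beside -0.01 for all genes. A log2 fold change above 0 was seen in 80 of 142 members (56.3%) and in 48.8% of all genes. The log2 fold changes of members and of all genes both moved with base composition. In the 25 members with a GC content of 40% or less the median was 0.19, beside 0.21 for all genes of that class, and in the 21 members above 55% it was -0.22, beside -0.21. Between them the medians were 0.12 for members and 0.12 for all genes at 40% to 45%, 0.10 and 0.01 at 45% to 50%, and -0.12 and -0.08 at 50% to 55%. Across the 142 members GC content and log2 fold change had a Pearson correlation of -0.31 and a Spearman correlation of -0.34, and across the 12790 tested genes with a GC value these were -0.64 and -0.69. These are correlations across genes that share 6 libraries, and genes are no independent replicates.

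With the GC correction the members' median was -0.01, beside 0.00 for all genes, and 47.9% of members and 50.5% of all genes were above 0. At 45% to 50% GC the members' median was then 0.07, beside 0.00 for all genes. The sign turned in 16 of the 142 members, 1 of them without overlap between groups. None of the members was called after the correction, although 13 (9.15%) had an unadjusted edgeR p under 0.05, and only 2 of all 12797 genes (0.0156%) were called. The members were a little lower in GC content than all tested genes, with medians of 46.1% and 47.9%. They were also shorter, at a median of 2190 bases against 3633, and had fewer exons, at a median of 3 against 8.

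**Figure D5:**
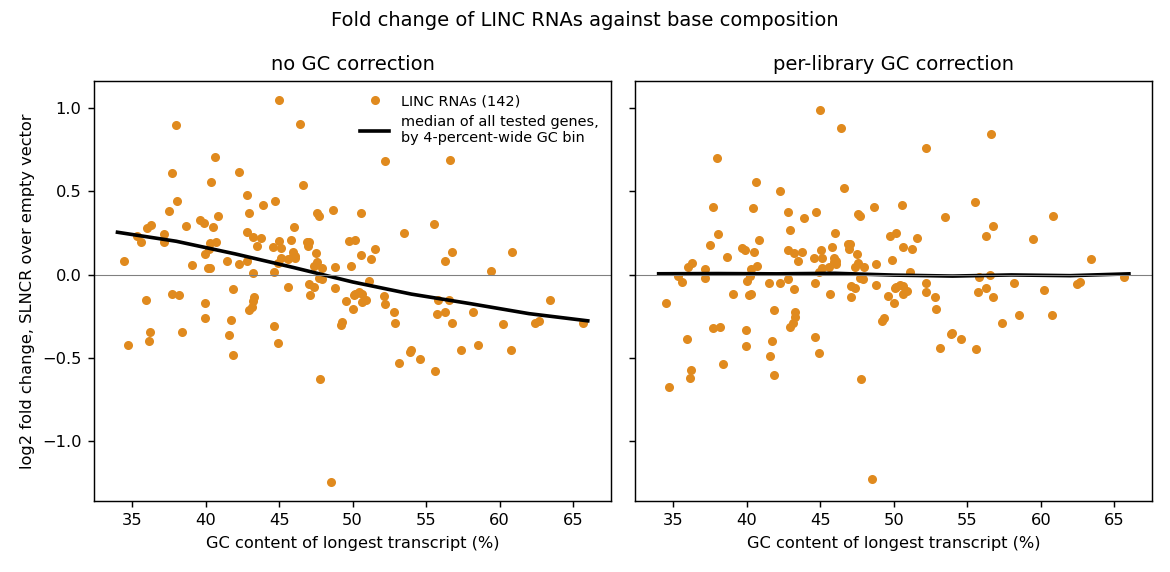
Log2 fold change of SLNCR over empty vector against the GC content of the longest transcript for the 142 tested LINC RNAs (orange), without (left) and with (right) a GC correction in each library. The black line, the median of all tested genes by GC content, slopes downward on the left and is flat on the right, and the members follow it with a wider scatter.

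In the genome the members were spread over 23 chromosomes, with 15 on chromosome 1, 11 on chromosome 12 and 10 each on chromosomes 3 and 18. GENCODE lists 115 of them as lincRNA, 10 as processed transcript, 7 as transcribed unprocessed pseudogene, 6 as antisense and the rest in other classes. Although the symbol stands for an intergenic gene, the intervals of 29 members overlapped another tested gene. Exons overlapped in 19 cases, 4 of them on the same strand, and in 4 members the other gene was also a member, as with LINC00667 and LINC00526. The strand setting of the counting is not given in the sources used here, so reads of such overlapping pairs may be shared. Without the members that overlap a tested gene there were still 3 calls among 113, beside 16.5% of all genes.

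The nearest tested protein-coding gene was within 10000 bases for 48 members and over 100000 bases away for 48, with a median distance of 39481 bases. That neighbour was itself called in 21 cases (14.8%), beside 17.5% of all protein-coding genes. It had the same sign as the member in 13 of these 21 cases and in 79 of all 142. Across all 142 pairs the Pearson correlation of the log2 fold changes was 0.19, and it was -0.0037 after the GC correction. The GC content of a member and of its neighbour had a Pearson correlation of 0.45, so the pairs share base composition as well as libraries. LINC01419 has no close neighbour: SNX16, which encodes a sorting protein of endosomes, is the nearest at 1560892 bases, and rose (log2 fold change 0.37, standard error 0.105, edgeR adjusted p = 0.0273). SNX16 has a GC content of 33.7%, and with the GC correction its log2 fold change was 0.11 (edgeR adjusted p = 0.656).

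In 11 members the start lay within 1000 bases of the start of a protein-coding gene on the opposite strand, an arrangement in which a promoter region is shared. Member and gene had the same sign in 6 of these pairs. FAM207A was the only called gene of the 11: it fell, with a log2 fold change of -0.54 and an edgeR adjusted p of 0.0181, while LINC01547, which starts 97 bases from it, had 23, 18 and 17 counts with SLNCR and 26, 22 and 19 counts with the empty vector, with overlap between the groups (log2 fold change -0.29, edgeR adjusted p = 0.448). With the GC correction FAM207A was no longer called (log2 fold change -0.26, edgeR adjusted p = 0.282), and LINC01547 had a log2 fold change of -0.05. This pair and the next 2 genes were singled out after their values were seen, for their position or known biology.

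LINC01578, now named CHASERR, lies just upstream of the chromatin remodeller gene CHD2 and is known from mice to hold Chd2 expression down. It stood at 14.2, 16.05 and 13.02 CPM with SLNCR and 14.8, 13.8 and 13.6 CPM with the empty vector (log2 fold change 0.04, edgeR adjusted p = 0.817, and -0.11 with the GC correction), and CHD2 had a log2 fold change of -0.07 (edgeR adjusted p = 0.539). LINC00632, whose locus also gives rise to the circular RNA CDR1as, stood at 6.18, 5.67 and 8.46 CPM with SLNCR and 5.39, 5.29 and 5.91 CPM with the empty vector. Its groups overlapped, and the log2 fold change was 0.28 (edgeR adjusted p = 0.282), or 0.04 with the GC correction. Exons of LINC00632 overlap those of CDR1 on the opposite strand, so reads of both genes may be mixed. CDR1 had a log2 fold change of 0.46 (edgeR adjusted p = 0.0658), or 0.38 with the GC correction (edgeR adjusted p = 0.346). Circular RNA was not counted as such here, and its reads may fall on these rows.

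Libraries of 1 group differed only a little more than counting noise in most members. The chi-square per degree of freedom within groups, which is near 1 when only counting noise is present, had a median of 1.13 in tested members and 1.67 in all tested genes. Among genes with a mean count up to 100 the medians were closer, at 1.05 for members and 1.15 for all genes. The chi-square per degree of freedom exceeded 2 in 34 members. The most variable was LINC00472, an RNA studied as a tumour suppressor in breast cancer, with a value of 7.12. Its counts were 262, 258 and 241 with SLNCR, and 200, 288 and 265 with the empty vector, where replicate 1 was the low library. LINC02067, at 6.26, and LINC00707, at 5.72, followed, both with SLNCR replicate 3 apart from the other SLNCR libraries.

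The limit of 60 counts cut through RNAs of like level. Just inside were LINC00526 and LINC00702 with 61 summed counts and LINC00442 and LINC01687 with 62, and just outside were LINC00869 and LINC01239 with 59, LINC02065 with 57 and LINC00239 with 56. LINC00442 and LINC01134 were the 2 members that did not pass the filter for testing. In each of them 1 empty vector library stood above the rest, at 19 counts in replicate 2 for LINC00442 and at 24 counts in replicate 1 for LINC01134.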

How the data were processed

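RNA sequencing of 3 SLNCR and 3 empty vector libraries was analysed from the raw read counts per gene deposited by the authors. The submitters' processing notes name STAR, cutadapt and DESeq2 1.24.07, and the build GRCh38. Which read counter, annotation and strand setting produced the counts is not stated there.

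Of 20238 rows, 1857 that name no gene (2.15% to 2.59% of counts) and 63 repeats within 22 runs of identical neighbouring rows were removed. GENCODE 29 (GRCh38) gave symbols, coordinates and the GC content and length of the longest transcript. Groups were compared with edgeR 4.0.16 (R 4.3.3), by the quasi-likelihood test with TMM factors and the default filter, two-sided, at a threshold of 0.05 after Benjamini-Hochberg adjustment across the 12797 genes tested. The biological coefficient of variation was 5.65%. The GC correction subtracted a loess curve of deviation from the gene mean against GC content in each library. The fit was also run on simulated counts in which all genes shared the same dispersion. Such counts do not show how the fit or the GC correction behaves on the libraries used here. No 2 libraries of a group agreed within sampling noise (chi-square per degree of freedom 1.79 to 6.97).

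Members and lists were chosen with earlier results of these data known. Genes named are the called members, the 12 with the most reads, the 8 with the largest difference without overlap, those beside the count limit, 2 lists and nearest neighbours. Alternatives were other size factors, filters, DESeq2 1.42.0, limma-voom (limma 3.58.1), the replicate number as a block, GC correction, other membership limits and leaving out each library. Low-count genes with almost no difference are scarce in the table used, as described above.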

Additional observations from a re-analysis of the deposited data

How the results depend on the processing

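The 3 called members were the same number with other size factors, no filter, limma-voom and a limit of 30 counts, and 2 with a stricter filter. With a limit of 200 summed counts 1 was called. DESeq2 called 0 of the 22 members to which it gave an adjusted p, beside 18.8% of all genes, and 3 of all members (2.08%) had an unadjusted DESeq2 p under 0.05, beside 18.1% of all genes. With the replicate number as a block, 5 members and 3523 of all genes were called, the added members being LINC00342 (edgeR adjusted p = 0.0441) and LINC02067 (edgeR adjusted p = 0.0395). Over all alternatives their adjusted p ranged from 0.0441 to 0.213 and from 0.00397 to 0.398. Libraries of the same number had correlations of 0.0414, 0.0217 and 0.195 in their deviations from the group means. SLNCR replicates 1 and 3 correlated best with the empty vector library of their own number. SLNCR replicate 2 correlated best with empty vector replicate 1, at 0.143. These values do not settle whether the numbers mark pairs, and the main fit did not take them as pairs. The GC correction left 0 members and 2 of all genes called, with a median log2 fold change of the members of -0.0116. At an unadjusted edgeR p under 0.05 these were 13 members and 1941 genes. GC correction together with the block left 1 member, LINC02067, and 409 genes, with a median of -0.0118. Leaving out 1 library at a time gave 0 to 5 called members, 1 to 3366 called genes and a median of 0.0107 to 0.0681. The lowest counts of genes came without SLNCR replicate 1 (1 gene) and without empty vector replicates 1 (1 gene) and 2 (2 genes). The cause was not tested. Among the members named in the text, those whose sign turned had log2 fold changes close to 0. With the GC correction, alone and with the block, these were LINC00467 (-0.05), LINC00667 (-0.03), LINC00839 (0.02) and LINC00888 (-0.05). The correction alone also turned LINC01578 (-0.11) and LINC01415 (-0.12). Leaving out 1 library at a time, the log2 fold change ranged from -0.13 to 0.27 for LINC00467 and from -0.06 to 0.21 for LINC00888 (both lowest without empty vector replicate 1), from -0.25 to 0.06 for LINC00472 (highest without empty vector replicate 2), from -0.20 to 0.04 for LINC00963 and from -0.01 to 0.10 for LINC01128 (turned without empty vector replicate 3), and from -0.0024 to 0.13 for LINC00667 and from -0.05 to 0.12 for LINC00857 (lowest without SLNCR replicate 3). Depth limits members with few reads such as LINC01730, LINC00702 and LINC00520, whose log2 fold changes have standard errors of 0.383, 0.382 and 0.378.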
